A study of Mus musculus with 4 samples.

Results

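The genes of MHC class I and of the machinery that supplies it with peptide were followed through single-cell RNA-seq libraries of mouse incisors with and without Din. The set held 10 genes of the 32285 in the count tables, and its members were picked by symbol. They were B2m, H2-K1, H2-D1, H2-Q7, H2-T23, Tap1, Tapbp, Psmb8, Psmb9 and Nlrc5. The members were chosen because they were already known to be higher in Din-KO than in WT cells of these libraries. Their Din-KO against WT values are therefore given as a description, with no test. The order of the WT cell types did not enter that choice. Each other WT cell type was tested against the mesenchyme, and the order itself was not tested. The difference of the genotype effect between cell types was tested as well. It is made from the same Din-KO and WT values, so that test is not independent of the choice.

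The tissue was the proximal part of the lower incisor of mice aged 15 days, digested to single cells after which dead cells were removed. The 4 libraries were WT replicates 1 and 2 and Din-KO replicates 1 and 2. Din-KO mice carried a germline allele with exon 2 of Din removed and a LacZ reporter in the locus, so that every cell type of the Din-KO incisor carried the deletion. Neither genotype received a treatment, and how many mice went into a library was not given in the sources used here.

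MHC class I molecules show short peptides from inside the cell to CD8 T cells and NK cells. A heavy chain (H2-K1 and H2-D1 among the classical ones, H2-Q7 and H2-T23 among the nonclassical) pairs with beta-2 microglobulin, encoded by B2m. Peptides are cut by proteasomes, in which Psmb8 and Psmb9 replace catalytic subunits of the constitutive particle, are carried into the endoplasmic reticulum by the transporter that contains Tap1, and are loaded with the help of tapasin, the product of Tapbp. Nlrc5 is the transactivator of class I genes. Interferons are the best known inducers of the pathway, which is active in most nucleated cells at very unequal levels.

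In GRCm38, 8 of the 10 genes lay on chromosome 17 in or next to the MHC. They were Tapbp (33915899-33929292), H2-K1 (33996017-34000347), Psmb9 (34181987-34187764), Tap1 (34187553-34197225), Psmb8 (34197721-34201454), H2-D1 (35262730-35267499), H2-Q7 (35439155-35443773) and H2-T23 (36029773-36032855). B2m lay on chromosome 2 (122147686-122153083) and Nlrc5 on chromosome 8 (94434356-94527272). All were annotated as protein coding. Heavy chain genes are near copies of each other. Of the 90-base stretches in the last 500 bases of their annotated transcripts, 8.925% for H2-D1, 4.4% for H2-T23, 3.87% for H2-Q7 and 2.307% for H2-K1 occurred in another gene as well, and 0 did for each of the other 6 members. These are shares of distinct stretches and not of reads, so the error they bring to the counts of single heavy chain genes was not measured. The stretches of H2-T23 were shared with Rab33b, Hook2 and H2-T-ps.

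The promoters of 3 heavy chain genes and of B2m are shown because these genes encode the class I molecule itself. Each window is the 250 bases before the RefSeq start site, read 5′ to 3′ on the strand of the gene. Windows were at hand for 9 of the 10 members, and Nlrc5 had none. Capitals mark matches on either strand to 4 motifs described for class I promoters. AANNGAAA is a core site of interferon regulatory factors and GGGGATTCC a site of NF-kB. CCAAT is the box bound by NF-Y, and TGACG is the core of the site bound by CREB and ATF factors. The motifs do not contain one another. The windows are chr17:34000348-34000597 (minus strand) for H2-K1, chr17:35262844-35263093 (plus strand) for H2-D1, chr17:35438905-35439154 (plus strand) for H2-Q7 and chr2:122147437-122147686 (plus strand) for B2m, all in GRCm38.p6.
H2-K1: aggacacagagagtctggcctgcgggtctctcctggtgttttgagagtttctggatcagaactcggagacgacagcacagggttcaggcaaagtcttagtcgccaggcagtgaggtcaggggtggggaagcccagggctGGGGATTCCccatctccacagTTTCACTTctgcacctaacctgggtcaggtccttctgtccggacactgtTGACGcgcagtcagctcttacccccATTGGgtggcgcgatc
H2-D1: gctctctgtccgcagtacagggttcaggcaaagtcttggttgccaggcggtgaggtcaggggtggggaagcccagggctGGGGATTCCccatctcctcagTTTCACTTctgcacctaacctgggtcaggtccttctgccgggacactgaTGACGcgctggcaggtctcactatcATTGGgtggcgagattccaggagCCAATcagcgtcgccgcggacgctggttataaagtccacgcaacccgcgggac
H2-Q7: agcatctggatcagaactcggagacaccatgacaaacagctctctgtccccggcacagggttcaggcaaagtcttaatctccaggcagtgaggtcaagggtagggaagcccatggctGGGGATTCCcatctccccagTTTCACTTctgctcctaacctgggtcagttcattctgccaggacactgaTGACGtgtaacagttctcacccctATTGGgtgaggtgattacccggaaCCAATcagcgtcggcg
B2m: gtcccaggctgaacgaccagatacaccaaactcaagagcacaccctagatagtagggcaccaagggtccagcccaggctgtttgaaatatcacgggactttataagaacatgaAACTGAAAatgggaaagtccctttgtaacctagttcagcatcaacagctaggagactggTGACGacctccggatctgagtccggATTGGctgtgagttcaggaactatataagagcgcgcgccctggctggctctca
The RefSeq start sites of Psmb9 and Tap1 face away from each other across 225 bases (chr17:34187331-34187555, plus strand, the direction of Tap1), although the longest annotated extents given above overlap there.
Psmb9-Tap1: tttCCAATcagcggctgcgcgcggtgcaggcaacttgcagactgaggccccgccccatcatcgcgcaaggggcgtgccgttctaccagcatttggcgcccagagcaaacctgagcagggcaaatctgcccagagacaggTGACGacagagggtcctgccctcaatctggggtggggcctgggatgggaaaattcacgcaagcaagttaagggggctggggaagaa

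The windows of H2-K1, H2-D1 and H2-Q7 held all 4 motifs, which was true of 5 of 32851 mouse promoters of the same length (0.01522%), these 3 included. The motifs were picked because they are described for class I promoters, so this share is a description and no test. The promoter of B2m held 3, without GGGGATTCC, and 3 or more motifs were present in 1.099% of promoters. Those of H2-T23, Tap1 and Psmb9 held 2, that of Tapbp 1 and that of Psmb8 0. Taken singly, AANNGAAA occurred in 21.31% of promoters, GGGGATTCC in 0.2131%, CCAAT in 33.85% and TGACG in 17.77%. A match is a string of letters and not evidence of binding.

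The libraries held 3257 to 6958 barcodes and 32198098 to 54348039 unique molecular identifiers (UMIs, 1 per captured transcript), and any pair of libraries shared at most 4 barcodes. After filtering, 1272 to 4575 cells per library were kept, with median depths of 8016 to 11588 UMIs, deeper in both libraries numbered 2. Cell classes were named from marker genes after clustering in which the members, their pathway and interferon-response genes took no part. Mesenchyme-like cells were the largest class (2648 and 848 cells in WT, 3032 and 633 in Din-KO). H2-D1 and H2-K1 were among the leading genes of the T or NK-like class (15 to 61 cells per library). Both Din-KO libraries held cells with Y-linked RNA, 43.4% of mesenchyme-like cells in each, whereas the WT libraries held 0 such cells, so each Din-KO library came from at least 1 male and 1 female mouse. Sex and genotype cannot be told apart across all cells, and medians are also given for Xist-positive cells alone where a class held enough of them. Din itself was detected at 28.5 to 36.3 CPM (UMIs of a gene per 1000000 UMIs of a library's cells of that class) in WT and 22.6 to 28.3 in Din-KO mesenchyme-like cells. Where the sequenced transcript end lies relative to the deleted exon was not examined, so these counts do not test the deletion.

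Which cells of a WT incisor use the class I pathway was asked first. By the mean of the WT libraries, T or NK-like cells were highest for 7 of the 10 genes, macrophage-like cells for 2 and B-like cells for 1. The T or NK-like values rested on 15 and 20 WT cells. For Nlrc5 they were 0 and 3 UMIs, so that in WT replicate 1 macrophage-like cells (4.58 CPM) lay above them. Epithelium-like cells were lowest for 5, B2m among them, perivascular-like cells for H2-T23 and Tap1 and glia-like cells for Tapbp. The perivascular-like values came from 25 and 17 WT cells. They ran from 0 to 20.0 CPM for H2-T23 and from 0 to 5.01 CPM for Tap1, and the higher value of each lay above the epithelium-like values. The lowest place was tied at 0 for the remaining genes. H2-Q7 was at 0 in glia-like and perivascular-like cells, and Nlrc5 in epithelium-like, glia-like, neutrophil-like and perivascular-like cells. B2m, the shared light chain, was at 1448 and 1184 CPM in macrophage-like cells of WT replicates 1 and 2, 783 and 940 CPM in T or NK-like cells, 408 and 460 CPM in B-like cells, 400 and 517 CPM in monocyte or dendritic-like cells, 361 and 339 CPM in endothelium-like cells, 112 and 162 CPM in mesenchyme-like cells and 21.7 and 15.7 CPM in epithelium-like cells. Both libraries gave this order apart from B-like against monocyte or dendritic-like cells, whose ranges overlapped. H2-K1, a classical heavy chain, was at 593 and 835 CPM in T or NK-like cells, 650 and 426 CPM in macrophage-like cells and 312 and 507 CPM in B-like cells. The macrophage-like range overlapped each of the others, and the T or NK-like values lay above the B-like values. It was at 118 and 233 CPM in endothelium-like, 31.1 and 85.3 CPM in mesenchyme-like and 22.4 and 12.8 CPM in epithelium-like cells. H2-Q7, a nonclassical heavy chain, had 129 and 98.3 CPM in T or NK-like cells and at most 15.5 CPM in each of the other classes.

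**Figure D1:**
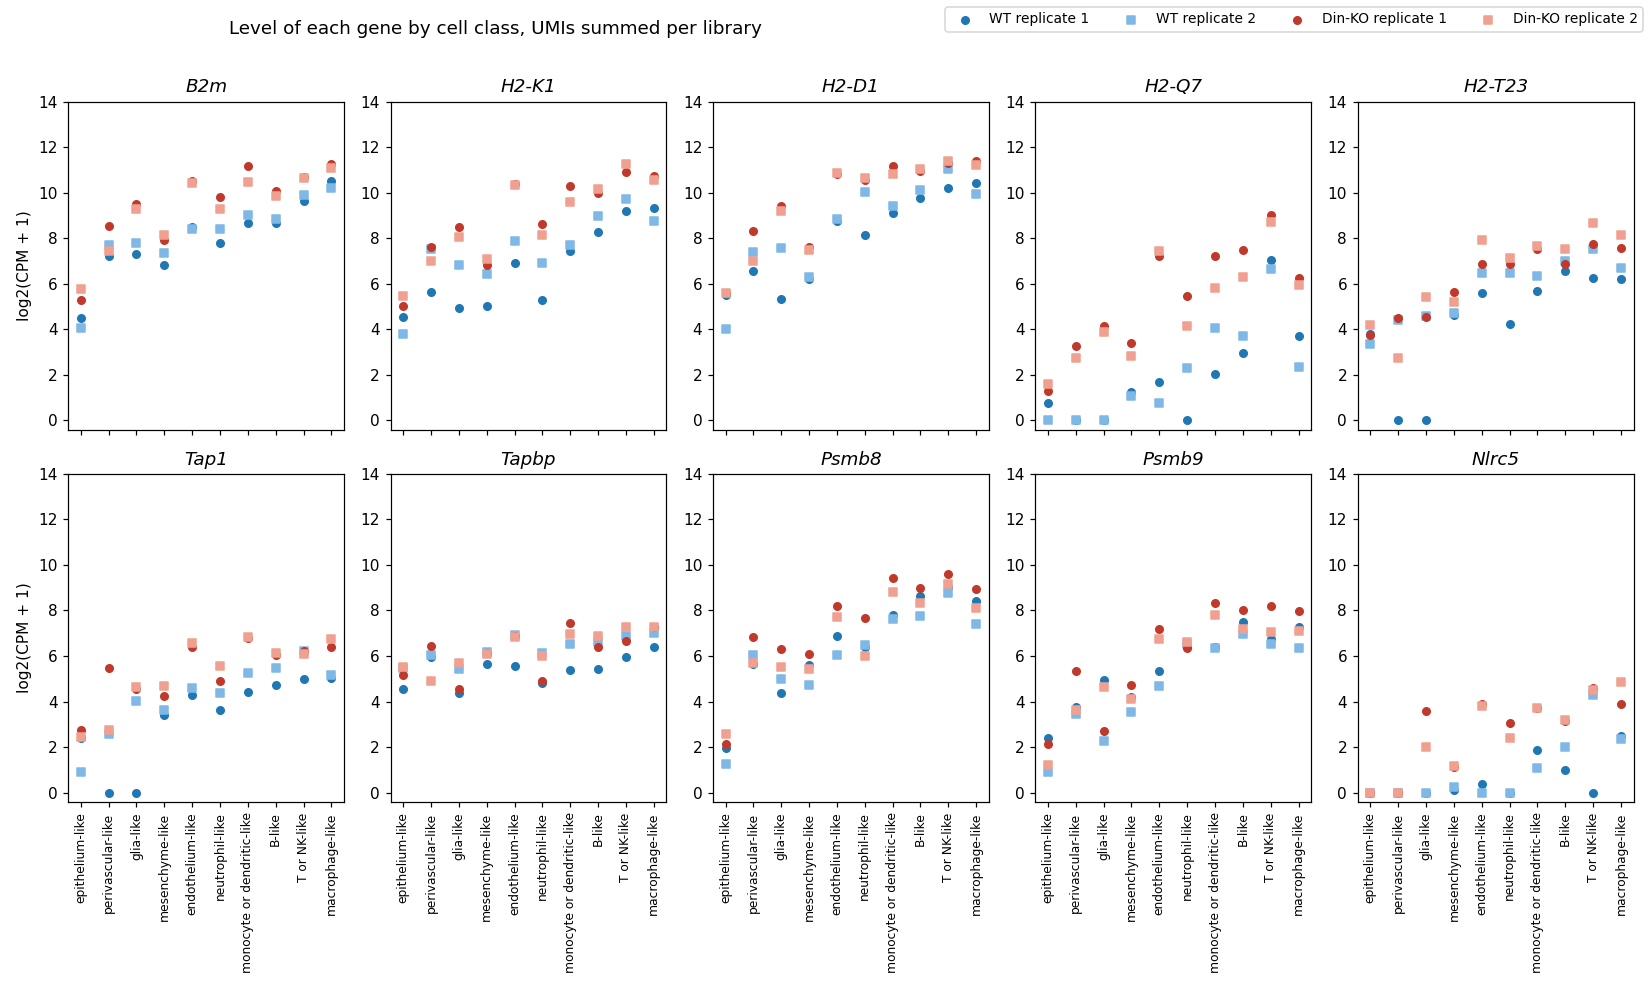
Level of each of the 10 genes in each cell class, as log2(CPM + 1), with 1 point per library (WT in blue, Din-KO in red, replicate 1 as circles and replicate 2 as squares). B2m ran from 15.7 CPM in WT epithelium-like cells to 2473 CPM in Din-KO macrophage-like cells.

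Against mesenchyme-like cells of the same libraries, 9 of the members could be tested in WT. Nlrc5 was too rare, with at most 19 UMIs in any WT class. All 9 were higher in macrophage-like cells, where 16.1% of 12435 genes were. In B-like cells (15% of all genes), T or NK-like cells (7.95%) and monocyte or dendritic-like cells (16%), 8 members were higher. In endothelium-like cells (12%) 6 were, and in neutrophil-like cells (13.3%) 5 were. In glia-like (4.87%) and perivascular-like cells (3.19%), classes with 14 to 25 WT cells per library, 0 were higher. Epithelium-like cells had 0 members higher (7.03% of all genes) and 4 lower (12.6%), namely B2m, Tap1, Psmb8 and Psmb9. In the other classes 0 members were lower, where 25% of all genes were in B-like, 22.8% in macrophage-like, 21.4% in monocyte or dendritic-like, 20.3% in neutrophil-like, 11.2% in endothelium-like, 11% in T or NK-like, 3.67% in glia-like and 2.29% in perivascular-like cells. Median log2 differences of the 9 genes from mesenchyme-like cells were 2.86 in B-like, 2.84 in macrophage-like, 2.73 in T or NK-like, 1.87 in monocyte or dendritic-like, 1.59 in neutrophil-like, 1.17 in endothelium-like, -0.21 in perivascular-like, -0.50 in glia-like and -1.60 in epithelium-like cells, beside medians of -0.61 to -0.09 over all genes.

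**Figure D2:**
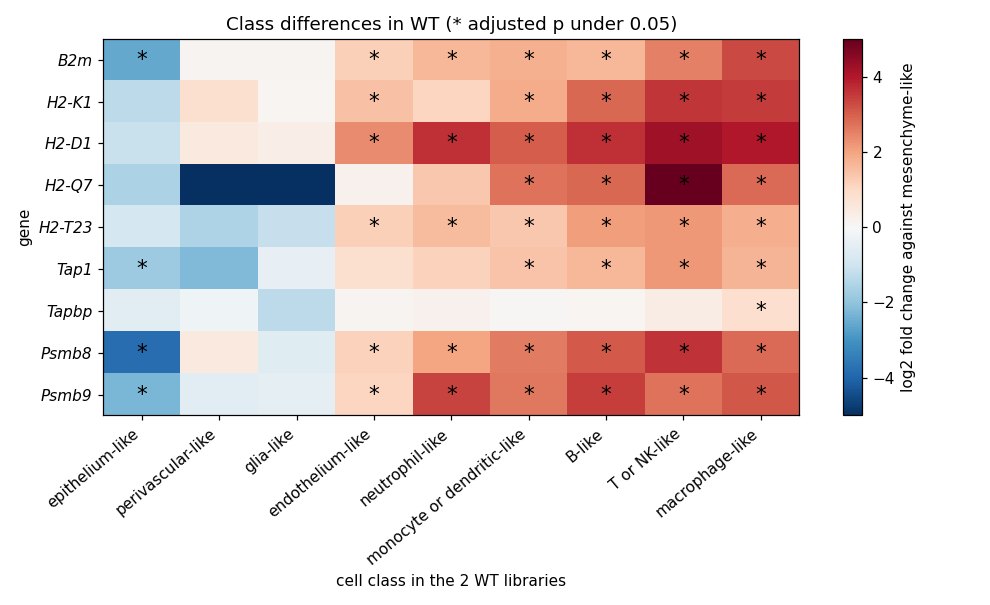
Heat map of the log2 difference of the 9 testable genes (rows) between a WT cell class (columns) and WT mesenchyme-like cells, from 2 libraries, with red for higher, blue for lower and asterisks for an adjusted p under 0.05. Colours are saturated at both ends of the scale, past which H2-Q7 lies at 6.31 in T or NK-like cells and, with 0 UMIs in both WT libraries, in glia-like and perivascular-like cells.

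The members did not share 1 profile. B2m rose by 3.31 ± 0.31 (log2 difference ± SE, edgeR adjusted p = 2.6e-07) in macrophage-like cells and was lower by -2.57 ± 0.31 in epithelium-like cells (adjusted p = 1.3e-05). H2-D1, the other classical heavy chain, was 4.25 ± 0.57 higher in T or NK-like cells (adjusted p = 4.4e-05) and 2.37 ± 0.52 higher in endothelium-like cells (adjusted p = 0.0026). H2-Q7 was 6.31 ± 0.83 higher in T or NK-like cells (adjusted p = 6e-05), while its difference in endothelium-like cells was 0.22 ± 0.91 (adjusted p = 0.91). Among the genes that make and load peptide, the immunoproteasome subunit gene Psmb8 showed the widest range, 3.60 ± 0.37 in T or NK-like cells (adjusted p = 2.5e-06) and -3.81 ± 0.45 in epithelium-like cells (adjusted p = 1e-05). Psmb9 followed it with 3.44 ± 0.35 in B-like cells (adjusted p = 1e-06) and -2.28 ± 0.43 in epithelium-like cells (adjusted p = 9.2e-04). Tap1 was higher by 1.70 ± 0.41 in macrophage-like cells (adjusted p = 0.0028). Tapbp differed least. It passed the test in macrophage-like cells alone (0.82 ± 0.30, adjusted p = 0.038), and its difference in endothelium-like cells was 0.15 ± 0.30 (adjusted p = 0.79).

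The next comparison was Din-KO against WT within the dental mesenchyme, the lineage that gives rise to pulp and odontoblasts. All 10 genes had positive log2 fold changes in mesenchyme-like cells, with a median of 0.94 beside -0.02 over all genes, and the median was 1.06 between the libraries numbered 1 and 0.78 between those numbered 2. For 7 of the 10 genes each Din-KO value exceeded each WT value, which was true of 11.5% of all genes. That contrast chose the members, so nothing is read from the count. Nlrc5 passed the filter on low counts here only through the Din-KO libraries, which fixed its sign.

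B2m had 112 and 162 CPM in WT and 240 and 283 CPM in Din-KO mesenchyme-like cells, a log2 fold change of 0.89 ± 0.26 (SE, n = 2 libraries per genotype). The genotypes did not overlap. H2-K1 had 31.1 and 85.3 CPM in WT and 113 and 136 CPM in Din-KO, a log2 fold change of 1.06 ± 0.52. The WT libraries differed by more than the gap between WT replicate 2 and Din-KO replicate 1. H2-D1 had 73.9 and 78.4 CPM in WT and 198 and 177 CPM in Din-KO, a log2 fold change of 1.26 ± 0.19, with WT libraries close to each other. H2-Q7 was rare in WT, with 39 and 18 UMIs (1.38 and 1.10 CPM), and had 270 and 77 UMIs (9.54 and 6.17 CPM) in Din-KO. Its log2 fold change was 2.62 ± 0.42. H2-T23, whose product is the ligand of an inhibitory NK receptor once loaded with leader peptides, had 23.8 and 25.3 CPM in WT and 48.6 and 36.3 CPM in Din-KO (0.75 ± 0.23).

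Of the processing genes, Tap1 had 9.62 and 11.5 CPM in WT mesenchyme-like cells and 18.1 and 24.7 CPM in Din-KO (log2 fold change 0.98 ± 0.25), without overlap. The other processing genes overlapped between genotypes. Tapbp had 48.7 and 71.2 CPM in WT and 68.7 and 67.2 CPM in Din-KO (0.14 ± 0.25). Psmb8 had 47.8 and 25.2 CPM in WT and 67.5 and 42.8 CPM in Din-KO (0.56 ± 0.42), and Psmb9 had 17.2 and 10.5 CPM against 25.8 and 16.3 CPM (0.57 ± 0.38). Both immunoproteasome genes were lower in the library numbered 2 of each genotype, and within each number the Din-KO library was the higher one. Nlrc5 rested on 2 and 3 UMIs in WT and 34 and 16 UMIs in Din-KO. Its ratio was 16.9 (95% interval 4.34 to 145) between the libraries numbered 1 and 7.01 (2.01 to 37.6) between those numbered 2, where the intervals cover counting error only.

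Within the mesenchyme, 3 named subsets were compared. In dental follicle-like cells 9 members lay higher in both Din-KO libraries (15.6% of all genes), with a median log2 fold change of 0.95, or 1.58 without WT replicate 2. Of a list of 14 immune cell genes, DESeq2 called the myeloid gene Lyz2 higher in these cells (1.53), and its part in the values of the members was not tested. In dental pulp-like cells 7 lay higher in both Din-KO libraries (10.2%), with a median of 0.91. The follicle and pulp counts include Nlrc5, which failed the filter on low counts there, whereas the shares cover genes that passed it. In follicle-like cells H2-Q7 passed it only through the Din-KO libraries, which fixed its sign. In odontoblast-like cells 3 members lay higher (15.6%), with a median of 0.28 over the 7 that passed the filter, 5 of them positive. That median was 0.81 without WT replicate 2, 0.16 without WT replicate 1 and -0.49 when the Din-KO cells were Y cells alone. In Xist cells alone the medians were 1.26 in follicle, 1.36 in pulp and 0.27 in odontoblast-like cells. H2-D1 had 58.8 and 65.1 CPM in WT and 252 and 233 CPM in Din-KO dental follicle-like cells, 80.5 and 55.1 against 201 and 117 CPM in dental pulp-like cells, and 36.7 and 162 against 69.1 and 116 CPM in odontoblast-like cells. The odontoblast-like values overlapped and the others did not. The genotype effect did not differ detectably between dental follicle-like or odontoblast-like and dental pulp-like cells, with 0 of 18 differences past an adjusted p of 0.05 and 0 at an unadjusted p under 0.05 (edgeR). DESeq2 called 0 as well. For B2m the difference between follicle and pulp was 0.04 ± 0.38 on the log2 scale. Of the 14 mesenchyme-like clusters, 11 held at least 10 cells of every library. Din-KO values exceeded WT values without overlap in 9 of these clusters for H2-D1, 8 for B2m and H2-Q7, 7 for H2-K1, H2-T23 and Tap1, 6 for Psmb9, 4 for Psmb8 and Nlrc5 and 1 for Tapbp. The share of all genes that did so was not counted per cluster. The clusters divide the same libraries and the Din-KO against WT contrast chose the members, so nothing is read from these counts.

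Endothelium-like cells line the vessels of the pulp and follicle. In them all 10 genes had positive log2 fold changes, with a median of 2.07 (2.06 and 2.03 in the library pairs). H2-Q7 and Nlrc5 passed the filter on low counts here only through the Din-KO libraries, so their signs were fixed by it. Both still count in the 10 and in the median. For 9 of the 10 genes the Din-KO values exceeded the WT values without overlap, as for 12% of all genes, and Tapbp overlapped. B2m had 361 and 339 CPM in WT and 1482 and 1383 CPM in Din-KO (2.06 ± 0.23). H2-K1 had 118 and 233 CPM in WT and 1322 and 1276 CPM in Din-KO (2.93 ± 0.35), a ratio of 11.2 in the libraries numbered 1 and 5.48 in those numbered 2. The Din-KO endothelium-like level of H2-K1 lay above its WT levels in every class.

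H2-Q7 had 7 and 1 UMIs in WT endothelium-like cells and 570 and 278 UMIs in Din-KO, or 2.18 and 0.702 against 148 and 173 CPM. Its log2 fold change of 6.54 ± 0.40 was the highest of the 10 genes in this class. The ratio between the libraries numbered 2 was 247, but with 1 WT UMI its interval ran from 44.0 to 9794. The log2 fold change of H2-D1 was 2.08 ± 0.22 (432 and 455 against 1831 and 1857 CPM) and that of H2-T23 was 1.43 ± 0.42 (47.7 and 87.7 against 117 and 241 CPM). For Tap1 it was 2.10 ± 0.25 (18.7 and 23.2 against 82.3 and 92.9 CPM), for Psmb9 1.95 ± 0.34 (39.9 and 24.6 against 144 and 105 CPM) and for Psmb8 1.45 ± 0.36 (117 and 66.0 against 290 and 207 CPM). For Tapbp the log2 fold change was 0.54 ± 0.41 (46.1 and 119 against 117 and 112 CPM). Nlrc5 had 1 and 0 UMIs in WT and 53 and 21 in Din-KO. The first pair gave a ratio of 44.0 (7.57 to 1770), and the second at least 6.22-fold higher when the WT library was set at a floor of 3 UMIs.

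**Figure D3:**
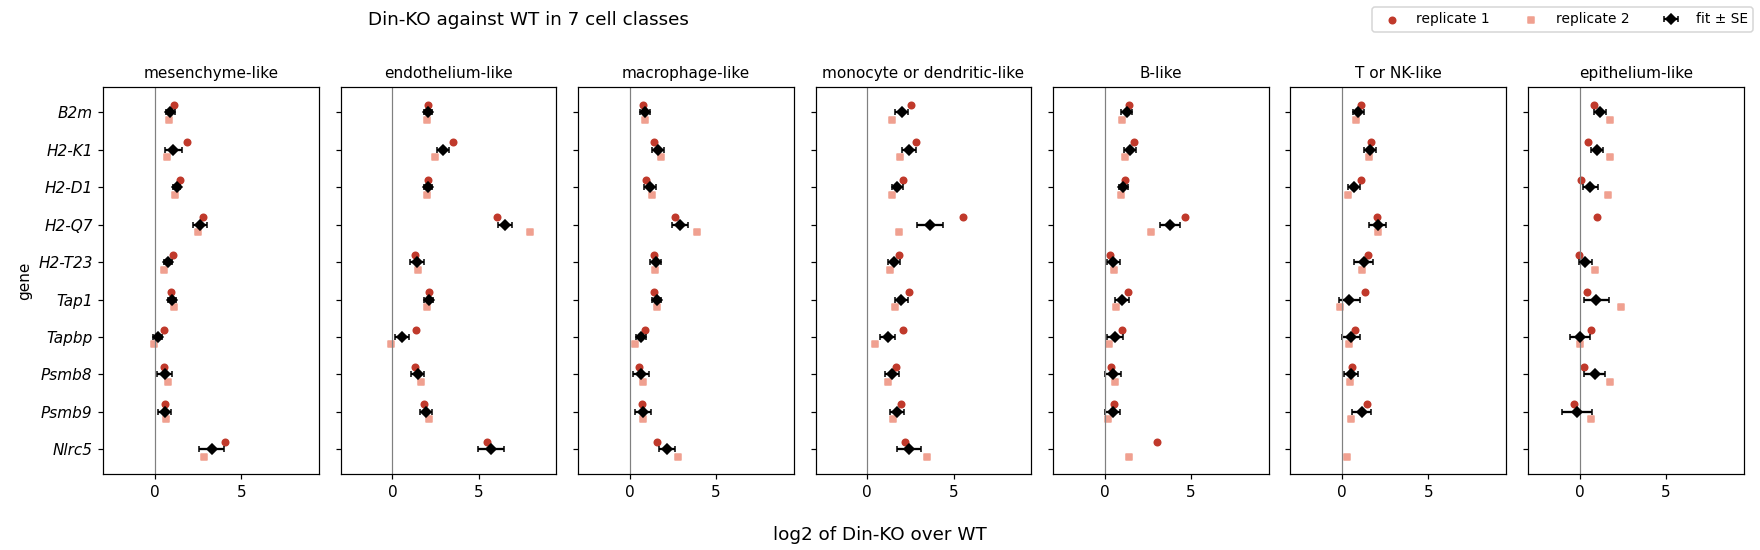
Log2 ratio of Din-KO to WT for each of the 10 genes in 7 cell classes, with 1 red point for each pair of libraries of the same number and a black diamond with bars for the fitted value ± SE, and no mark where a library had 0 UMIs or the gene failed the filter. In endothelium-like cells the median of the 10 genes was 2.06 in the first pair and 2.03 in the second, and in mesenchyme-like cells 1.06 and 0.78.

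The immune classes, whose WT levels were high, had positive medians too. Macrophage-like cells had 8 members above in both Din-KO libraries (9.99% of all genes) and a median log2 fold change of 1.32, with H2-K1 at 650 and 426 CPM in WT and 1715 and 1517 CPM in Din-KO. Monocyte or dendritic-like cells had all 10 (24.1%) and a median of 1.86. WT replicate 1 stood apart in this class, with 5858 CPM summed over the list of immune cell genes against 27226 CPM in WT replicate 2 and 17448 and 21793 CPM in Din-KO, and without it the median was 1.74. The median of this class was 1.41 when clusters were formed without integration. No value was obtained when pathway genes were kept among the variable genes. B2m had 400 and 517 CPM in WT and 2301 and 1407 CPM in Din-KO monocyte or dendritic-like cells. B-like cells had 6 (9.78%) with a median of 1.02, and T or NK-like cells 8 (12.6%) with a median of 0.94. Neutrophil-like cells had 7 (8.04%), with a median of 1.33 over the 7 that passed the filter, and glia-like cells 7 (13.8%), with 1.89 over the 4 that passed. The shares cover genes that passed the filter, whereas the counts include members that failed it. These were Nlrc5 in B-like and T or NK-like cells, and H2-Q7, Tap1 and Nlrc5 in neutrophil-like and glia-like cells. Other members passed it only through the Din-KO libraries, which fixed their signs. Those were Nlrc5 in monocyte or dendritic-like, H2-Q7 in B-like and Psmb8 in glia-like cells. Nlrc5 had 0 UMIs in WT and 1 in each Din-KO library of neutrophil-like cells, and 0 and 2 in glia-like cells. The neutrophil-like median was 0.72 without WT replicate 1. Glia-like cells numbered 14 and 15 in WT, and the medians of the library pairs over all members with a value or bound were 1.09 and 0.88. Leaving out WT replicate 1 gave a fitted median of 1.22, and leaving out WT replicate 2 gave 2.79. Immune cell RNA moved with genotype in glia-like cells, where the same list summed to 157 and 564 CPM in WT and 1977 and 1276 CPM in Din-KO. DESeq2 called the myeloid genes S100a8 (6.59) and Lyz2 (3.27) of that list there. The part of this RNA in the glia-like values was not tested. Epithelium-like cells kept low levels in Din-KO as well, with 6 members above (17.8%), among them H2-Q7, which failed the filter, and a median of 0.74 over 8 genes. B2m there was at 21.7 and 15.7 CPM in WT and 38.4 and 53.5 CPM in Din-KO, below every WT mesenchyme-like value.

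Summed over the 10 genes, mesenchyme-like cells carried 366 and 471 CPM in WT and 791 and 792 CPM in Din-KO. These sums pool unequal mixes, with 2238 and 324 dental pulp-like cells in WT and 2575 and 236 in Din-KO. Dental follicle-like cells numbered 342 and 420 in WT and 361 and 309 in Din-KO. Pulp-like cells carried 368 and 302 against 782 and 487 CPM, and follicle-like cells 415 and 604 against 1089 and 1114 CPM. The part of the mix in the mesenchyme-like values was not tested. Endothelium-like cells carried 1184 and 1348 CPM in WT and 5548 and 5461 CPM in Din-KO, more than either WT library had in macrophage-like cells (4172 and 3101 CPM). Din-KO macrophage-like cells carried 8092 and 7091 CPM.

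Whether the genotype effect was unequal between classes was tested with a class by genotype term. Measured against mesenchyme-like cells, 0 of 80 differences over the 10 genes and 8 classes passed an adjusted p of 0.05 by edgeR, and DESeq2 called 0. At an unadjusted p under 0.05 there were 10, of which 5 were in endothelium-like, 4 in monocyte or dendritic-like and 1 in glia-like cells, and all 10 were larger in that class than in the mesenchyme. Of all 13100 genes, 0.473% were larger at that p in endothelium-like, 4.42% in monocyte or dendritic-like and 2.32% in glia-like cells. The difference for H2-Q7 in endothelium-like cells was 4.07 ± 0.83 (adjusted p = 0.35), that for H2-K1 1.82 ± 0.56 and that for B2m 1.14 ± 0.41 (adjusted p = 1 for both). The medians of the 10 differences were 1.14 in endothelium-like and 1.00 in monocyte or dendritic-like cells. Without the filter on low counts 2 passed, H2-Q7 with 4.08 and H2-K1 with 1.81 (adjusted p = 0.0486), both in endothelium-like cells. A larger effect in the endothelium was therefore not established at this number of libraries. The test was built from the Din-KO and WT values that chose the members, so it is not independent of that choice. H2-Q7 entered it with 7 and 1 WT UMIs in endothelium-like cells.

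The Din-KO libraries each mixed cells of at least 2 mice that differed in sex, and class I levels differed between those cells. Cells with a Y-linked UMI (Y cells) were set against cells that held 3 or more UMIs of Xist and lacked Y-linked RNA (Xist cells) within each Din-KO library. In Din-KO replicate 1, all 10 genes were lower in Y cells than in Xist cells of the mesenchyme-like class, with a median log2 difference of -1.39 (1317 Y and 1090 Xist cells). In Din-KO replicate 2, all 10 were higher in Y cells, with a median of 0.50 (275 Y and 285 Xist cells). Endothelium-like cells showed the same turn, -1.03 in replicate 1 (90 Y and 129 Xist cells) and 1.48 in replicate 2 (33 and 63 cells), again over 10 of 10 genes each. Medians over all genes lay between -0.02 and 0.08 in these and in macrophage-like cells. Of all genes, 12.6% were lower in Y cells by more than 0.5 on the log2 scale in mesenchyme-like cells of replicate 1, where 10 of 10 members were, and 14.7% were higher by that much in replicate 2, where 5 of 10 members were. In endothelium-like cells the shares were 15.5% (10 members) and 22.5% (9 members).

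B2m in endothelium-like cells gives the size of this split. Xist cells of Din-KO replicate 1 had 2054 CPM and Y cells 995 CPM, whereas in replicate 2 Xist cells had 1036 CPM and Y cells 2146 CPM. Xist cells of WT had 358 and 338 CPM, below all 4. H2-K1 followed with 1925 and 745 CPM in Xist and Y cells of Din-KO replicate 1 and 816 and 2441 CPM in those of replicate 2, against 115 and 234 CPM in WT. For H2-Q7 the Din-KO values were 278 CPM in Xist and 29.0 CPM in Y cells of replicate 1, and 35.9 and 533 CPM in those of replicate 2. The higher level was thus in cells of 1 sex in replicate 1 and of the other sex in replicate 2.

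In mesenchyme-like cells B2m was at 379 CPM in Xist and 157 CPM in Y cells of Din-KO replicate 1, and at 240 and 328 CPM in replicate 2, against 112 and 162 CPM in WT Xist cells. The Y cells of replicate 1 fell between the WT libraries. H2-K1 in those Y cells was at 65.5 CPM, also between the WT libraries (31.0 and 85.4 CPM in Xist cells). Counted over the 10 genes, 10 exceeded both WT values in Xist cells of replicate 1 (28.4% of all genes), 7 in Y cells of replicate 1 (25.2%), 7 in Xist cells of replicate 2 (32.2%) and 9 in Y cells of replicate 2 (35.9%). In endothelium-like cells these counts were 10 (24.4%), 8 (23.8%), 9 (30.9%) and 10 (36.9%). Macrophage-like cells showed less of a split in replicate 1, with a median Y minus Xist difference of -0.06 (199 Y and 334 Xist cells). In replicate 2 all 10 genes were higher in macrophage-like Y cells, with a median of 0.41 (32 Y and 35 Xist cells). That median was close to the 0.50 of mesenchyme-like cells of replicate 2 and below the 1.48 of endothelium-like cells. By the cut-off used above, 4 of the 10 genes were higher in these Y cells, as were 20.7% of all genes. Restricted to Xist cells in all 4 libraries, the median log2 fold change of the members was 1.20 in mesenchyme-like, 2.17 in endothelium-like, 1.14 in macrophage-like, 2.08 in monocyte or dendritic-like, 0.63 in epithelium-like and 1.19 in B-like cells. The class by genotype test was not run on Xist cells alone. Restricted in Din-KO to Y cells, a setting chosen after seeing the data, it was 0.75 in mesenchyme-like and 2.16 in endothelium-like cells.

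**Figure D4:**
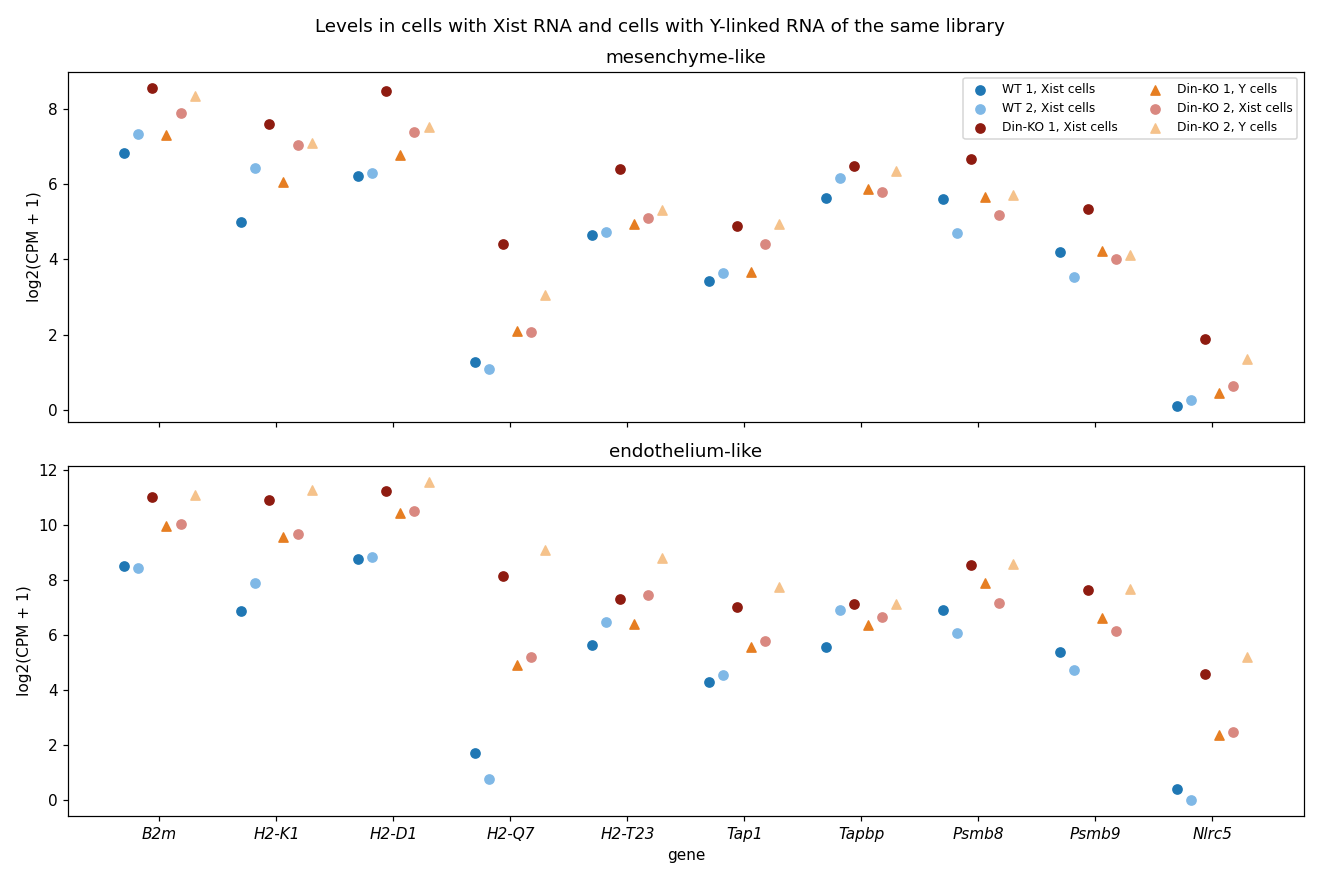
Levels of the 10 genes, as log2(CPM + 1), in Xist cells (circles) and Y cells (triangles) of the libraries, in mesenchyme-like (top) and endothelium-like cells (bottom). In endothelium-like cells B2m was higher in Xist than in Y cells of Din-KO replicate 1 (2054 and 995 CPM) and lower in replicate 2 (1036 and 2146 CPM).

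RNA of immune cells was also higher in the sums of Din-KO mesenchyme-like cells, though not beyond the overlap of the libraries. The list of immune cell genes summed to 161 and 213 CPM in WT and 207 and 378 CPM in Din-KO mesenchyme-like cells. Of the 13 tested, all 13 had positive log2 fold changes and 7 lay above in both Din-KO libraries, and Cd3e was at 0 in Din-KO replicate 2. In cells without any UMI of the list (1263 and 289 in WT, 1711 and 255 in Din-KO) the members' median log2 fold change was 0.75, and the same 7 of 10 genes as in all cells lay higher in both Din-KO libraries, as did 11% of all genes. In endothelium-like cells the list summed to 1091 and 601 CPM in WT and 1131 and 1121 CPM in Din-KO, and in epithelium-like cells to 53.3 and 55.6 against 72.7 and 205 CPM. The part of this RNA in the endothelium-like and epithelium-like values was not tested.

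Detection per cell depended on depth and is given with every cell thinned to 2000 UMIs. B2m had a UMI in 20.0% and 24.6% of WT and 33.6% and 36.5% of Din-KO mesenchyme-like cells when thinned, and in 60.7% and 80.7% against 69.3% and 82.3% when not. H2-K1 had a UMI in 6.52% and 16% of thinned WT mesenchyme-like cells and 17.3% and 20.1% of those of Din-KO. In endothelium-like cells B2m had a UMI in 48.3% and 46.5% of thinned WT cells and 89.7% and 87.4% of thinned Din-KO cells, and H2-K1 in 25.8% and 27.7% against 81.4% and 82.9%. H2-Q7 had one in 0.847% and 0.990% against 25.5% and 24.3%. Epithelium-like cells, the lowest class, had a UMI of B2m in 4.26% and 2.48% of thinned WT and 8.47% and 7.41% of thinned Din-KO cells, and the mesenchyme-like and endothelium-like shares of B2m lay above these. In Din-KO, B2m and H2-K1 were thus detected in most endothelium-like cells even at that depth, and H2-Q7 was not.

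The rest of the pathway was read from lists of related genes, with 0 calls for any gene by edgeR in any of the 9 classes (410 gene and class pairs, without the immune list). At an unadjusted p under 0.05, 43 pairs were higher and 1 was lower in Din-KO, beside 2.32% higher and 1.48% lower over all 74072 pairs of a gene and a class. The lists were chosen with earlier results of these data known, and a gene can count in several classes of the same libraries. These counts, like the DESeq2 calls that follow, are therefore a description. DESeq2, which called 0.532% of all pairs, called 6 of these, among them H2-Q6 and H2-T22 in endothelium-like cells, H2-Q6 in macrophage-like cells and H2-T22 in monocyte or dendritic-like cells. Over all genes edgeR called 0% in mesenchyme-like cells, 0.0539% higher in endothelium-like cells, 0.0488% higher in macrophage-like cells, 0.0154% higher in dental follicle-like cells and 0.0121% lower in monocyte or dendritic-like cells.

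Among other heavy chain genes, the largest log2 fold changes in mesenchyme-like cells were those of H2-Q6 (2.70), H2-Q4 (1.80) and H2-M3 (0.58), and in endothelium-like cells those of H2-Q6 (7.19), H2-Q4 (2.59) and H2-T24 (1.78). Of the 9 genes of this list that were tested, 4 were positive in mesenchyme-like cells (median -0.08) and 7 in endothelium-like cells (median 1.12). H2-Q6 rested on 1 UMI in each WT library of endothelium-like cells, against 72 and 206 in Din-KO. In mesenchyme-like cells it had 1 and 11 UMIs in WT, against 26 and 45 in Din-KO. Among regulators of class I genes, Irf8 (0.85) and Irf9 (0.83) had large log2 fold changes in mesenchyme-like cells, and Stat2 (0.99) and the feedback inhibitor gene Socs1 (0.96) in endothelium-like cells. Stat2 and Irf9 encode factors that carry interferon signals to the nucleus. None of these passed the edgeR test.

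Among loading genes outside the set, the largest absolute log2 fold changes in mesenchyme-like cells were those of Pdia3 (-0.24), Canx (-0.12) and Tap2 (0.07). In endothelium-like cells they were Tap2, the partner of Tap1 (1.03), Tapbpl (0.78) and Canx (-0.20). The third immunoproteasome subunit gene, Psmb10, had 0.13 in mesenchyme-like and 0.79 in endothelium-like cells, and the PA28 activator genes Psme1 and Psme2 had 0.01 and -0.12 in the former and 0.54 and 0.48 in the latter. The constitutive core of the proteasome gave a scale for these values. Of its 14 genes 0 were positive in mesenchyme-like cells, led by Psma5 (-0.24), and 13 were positive in endothelium-like cells, led by Psma1 (0.21). Interferon ligand and receptor genes were led by Ifnlr1 (0.55) in mesenchyme-like and Ifngr2 (0.28) in endothelium-like cells. Of this list, 2 of 9 tested genes were positive in mesenchyme-like cells (median -0.08) and 5 of 8 in endothelium-like cells (median 0.12). Ifng itself was seen in T or NK-like cells, with 4 and 2 UMIs in WT and 21 and 5 UMIs in Din-KO, or 30.4 and 12.3 against 54 and 27.6 CPM, where the genotypes overlapped. Ifnb1 had 3 UMIs, all in macrophage-like cells of Din-KO replicate 1.

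Over the 36 sums of a library and a class, the genes outside the set and its lists whose log2 CPM most resembled the mean of the members were Sp110 (Pearson r = 0.914), Parp10 (0.901), Epsti1 (0.892), Sp100 (0.883) and Trim30a (0.880). The members' own values ran from 0.788 for Tapbp to 0.975 for H2-K1. In the 18 WT sums alone the 5 genes gave 0.943, 0.842, 0.911, 0.867 and 0.888. Sums of 1 library share its preparation and depth, and these values are a description.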

How the data were processed

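The authors sequenced 10x 3′ v3.1 libraries of WT and Din-KO incisors, ran bcl2fastq and Cell Ranger 6.0.2 on mm10, and deposited filtered matrices of raw UMI counts per gene and cell, 1 matrix per library. Free RNA was not removed from the counts. From these counts, 11310 of 20502 barcodes were kept, those with 1000 or more genes whose mitochondrial share did not pass 10% and hemoglobin share 3%, and integrated in Seurat 5.3.0 with 2000 variable genes, from which the members, their pathway, sex-linked and interferon-response genes were left out. Clusters at resolution 1 on 30 components were named from markers. Cluster 23 (136 cells) stayed unnamed, and a class with fewer than 10 cells in a library was left out of a comparison. Scrublet marked 25 cells (0.221%), too few to count as working, so removal of the 5% highest scores was an alternative. Counts were summed per library and class and fitted over all genes in edgeR 4.0.16 (TMM, filterByExpr, quasi-likelihood test, Benjamini-Hochberg adjustment) in R 4.3.3, with DESeq2 1.42.0 as an alternative, and the steps were tested on simulated data. Each SE was worked back from the edgeR test, as the absolute log2 fold change over the square root of its F statistic. It therefore rests on a spread moderated over all genes and is not the measured spread of that gene alone. With 2 libraries per genotype, p-values of Din-KO against WT measure the spread between libraries only. The tests between classes fitted a term for each library, so their p-values measure how class differences vary between libraries. That spread was estimated over all classes together.

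The members and lists were chosen with earlier results of these data known. The text names all 10 members, from each list the genes past the threshold or else the 3 with the largest absolute fold change, and the 5 genes most alike, with Pearson's r on log2(CPM + 1), except that a gene of the lists is not reported here. Intervals are exact at 95% and, like the floor of 3 UMIs, cover counting error only. Promoters came from RefSeq (GRCm38.p6).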

Additional observations from a re-analysis of the deposited data

Results flagged for a closer look

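Y minus Xist differences of the class I genes turned direction between the Din-KO libraries. Their median over the 10 genes was -1.39 (log2) in the first Din-KO library and 0.50 in the second for mesenchyme-like cells, and -1.03 and 1.48 for endothelium-like cells. All 10 genes had the sign of the median in each of these 4 sums. The difference between the libraries was not tested, since each library gives 1 value, and its cause was not tested.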

How the results depend on the processing

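Among all pairs of the 9 tested members and 9 classes, 4 pairs were lower than in mesenchyme-like cells with the WT libraries alone. With all 4 libraries in the fit, 11 pairs were lower. H2-T23 in neutrophil-like cells had 1.59, 1.79 without WT replicate 1 and -0.41 without WT replicate 2. The mesenchyme-like median log2 fold change of 0.94 ranged from 0.91 to 1.13 when 1 library was left out and was 1.20 in Xist cells alone. It was 0.78 with every cell thinned to 2000 UMIs. In cells without immune RNA it was 0.75, and with Y cells alone in Din-KO it was 0.75 as well. The number of unequal genotype effects went from 0 to 2 without the filter on low counts. The mean share of mesenchyme-like cells with a UMI of B2m went from 70.7% to 22.3% in WT and from 75.8% to 35.1% in Din-KO after thinning. With the replicate block the median was 0.94 and 0 genotype effects were unequal, and no call changed. The numbers pair no samples by their labels, although the WT and Din-KO libraries of the same number deviated together over 15298 genes in mesenchyme-like cells (r = 0.827). Classes with fewer than 10 cells in a library under a setting gave no value there. With 2 libraries per genotype, depth limits H2-Q7 and Nlrc5 most, since they rest on few WT UMIs.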

Other observations

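Some class I genes differed between the libraries numbered 1 and 2 in the same direction in both genotypes, a comparison chosen after the values were seen. Over the classes with enough counts, H2-Q4 was higher in the library numbered 2 in 6 of 6 WT and 7 of 7 Din-KO classes, with median log2 differences of 1.62 and 1.84. H2-T23 was higher there in 7 of 8 WT and 8 of 9 Din-KO classes (0.58 in both). Psmb8 was higher there in 1 of 8 WT and 1 of 9 Din-KO classes, with medians of -0.86 and -0.65. The classes divide the same libraries, so these counts repeat the same library difference and are not separate observations. The share of all genes that differed so was not counted. The cause was not tested.

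The ratio of the classical heavy chains H2-K1 and H2-D1 also varied by class. Neutrophil-like cells had 0.135 and 0.115 in WT and 0.262 and 0.172 in Din-KO. Endothelium-like cells had 0.274 and 0.512 in WT and 0.722 and 0.687 in Din-KO, and mesenchyme-like cells 0.420 and 1.09 against 0.573 and 0.770, where the genotypes overlapped.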
